A study of Mus musculus with 18 samples.

Results

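WT macrophages that received defactinib before LPS were compared with IRF5 KO macrophages that received the DMSO vehicle before LPS, that is, an inhibitor in the presence of IRF5 against the loss of IRF5 without the inhibitor. The comparison holds 6 of the 18 libraries of the series, chosen by the genotype and treatment in their labels. The question is on which genes the inhibitor-treated WT cells did not look like IRF5 KO cells. The cells were bone marrow-derived macrophages (BMDMs), which are bone marrow cells grown into macrophage-like cells, here with recombinant GM-CSF over 8 days. The WT LPS defactinib group (3 libraries) was WT cells given 3.5 μM defactinib for 1 h and then 100 ng/ml LPS for 2 h. The IRF5 KO LPS DMSO group (3 libraries) was IRF5ko cells given DMSO and then LPS at the same dose and times. Beside them stand WT LPS DMSO, IRF5 KO LPS defactinib, and unstimulated WT and IRF5 KO cells, with 3 libraries in each group. The unstimulated libraries carry DMSO in their titles and an untreated mark in the count table. The knockout cells came from IRF5-/- mice, so that the loss of IRF5 was in place before the culture, whereas the inhibitor was given on the day. GM-CSF cultures of bone marrow are known to hold macrophage-like and dendritic-like cells together. The mice are described as male C57BL/6J of 8 to 11 weeks, without a statement that this covers the RNA-seq. The replicates, numbered 1 to 3 in the labels, are described in the methods as biological. No label ties a library to a mouse or culture, and p-values measure the spread between these libraries.

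IRF5 is a transcription factor of the interferon regulatory factor family that is activated downstream of Toll-like receptors and drives inflammatory cytokine genes in macrophages. LPS, a bacterial cell wall component, is sensed by TLR4, which signals through NF-kB, MAP kinases and IRF3, and induces cytokines, interferon-beta and, through it, the interferon-stimulated genes (ISGs). Defactinib inhibits focal adhesion kinase (FAK, encoded by Ptk2) and the related kinase PYK2 (encoded by Ptk2b), which transmit signals from integrins and from several immune receptors.

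The promoters of 5 genes on which the comparison turned are printed first, to show which regulatory letters lie upstream of them. Each line holds the 250 bases before the gene's start in RefSeq, build GRCm38.p6, written 5′ to 3′ on the gene's strand. Capitals mark matches to the letters 1 of 3 motifs, searched on both strands. These were GAAA, any 2 bases and GAAA again (the core of an interferon-stimulated response element, ISRE), GGGA, any 2 bases and TTCC (like an NF-kB site), and TGANTCA (an AP-1 site). Il12b lies at chr11:44399813-44400062 (+ strand), Il6 at chr5:30012864-30013113 (+), Cxcl10 at chr5:92348890-92349139 (- strand), Rsad2 at chr12:26456453-26456702 (-) and Ifit1 at chr19:34640639-34640888 (+).
Il12b: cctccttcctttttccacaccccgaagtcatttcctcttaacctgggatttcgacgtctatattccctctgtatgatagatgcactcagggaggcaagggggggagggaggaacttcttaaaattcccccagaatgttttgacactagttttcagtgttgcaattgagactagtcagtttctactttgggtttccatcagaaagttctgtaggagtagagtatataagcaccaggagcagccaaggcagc
Il6: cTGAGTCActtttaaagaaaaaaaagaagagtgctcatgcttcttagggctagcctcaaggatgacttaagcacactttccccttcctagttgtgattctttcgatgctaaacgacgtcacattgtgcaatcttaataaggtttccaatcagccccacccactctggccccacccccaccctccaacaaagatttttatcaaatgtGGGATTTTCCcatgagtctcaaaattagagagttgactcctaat
Cxcl10: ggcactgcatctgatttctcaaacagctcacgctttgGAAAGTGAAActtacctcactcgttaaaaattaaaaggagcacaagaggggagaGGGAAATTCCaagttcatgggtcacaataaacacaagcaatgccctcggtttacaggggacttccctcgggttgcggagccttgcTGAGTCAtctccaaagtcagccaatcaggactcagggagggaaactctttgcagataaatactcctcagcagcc
Rsad2: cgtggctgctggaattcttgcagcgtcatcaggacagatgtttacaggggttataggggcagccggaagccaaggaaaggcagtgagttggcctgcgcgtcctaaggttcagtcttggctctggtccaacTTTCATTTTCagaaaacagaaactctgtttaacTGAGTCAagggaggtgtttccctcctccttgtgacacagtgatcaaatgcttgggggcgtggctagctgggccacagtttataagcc
Ifit1: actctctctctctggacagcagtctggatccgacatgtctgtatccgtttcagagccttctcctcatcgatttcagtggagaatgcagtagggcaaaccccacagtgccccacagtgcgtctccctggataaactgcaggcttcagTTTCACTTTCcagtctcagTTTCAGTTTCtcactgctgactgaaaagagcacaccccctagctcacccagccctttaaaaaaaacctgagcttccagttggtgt

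The Cxcl10 window held a match to each of the 3 motifs, without overlap. Those of Rsad2 and Ifit1 held the ISRE letters on the opposite strand, once in Rsad2 and 2 times in Ifit1. The Il6 window held the NF-kB-like letters at -44 to -35 and the AP-1 letters at -249 to -243. The Il12b window held none of the 3, which says only that these letters are not in this window. Over all 32851 windows of this length, 2.98% held the ISRE letters, 1.21% the NF-kB-like letters and 6.75% the AP-1 letters. Among the ISGs with a window, 32 of 55 held the ISRE letters (58.2%), against 4 of 26 cytokine genes (15.4%). The list shares count a gene if any of its windows held the letters, while the shares over all windows count each window. The NF-kB-like letters were found for 5 of 16 chemokine genes (31.2%) and 4 of 26 cytokine genes (15.4%). A match is a description of the letters and not a measured binding site.

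Irf5 (ENSMUSG00000029771, chromosome 6, 29526625 to 29541871, mm10) was counted at 213, 234 and 379 CPM (counts scaled to a common library size) in replicates 1, 2 and 3 of WT LPS defactinib. In the IRF5 KO LPS DMSO libraries it was at 435, 431 and 345 CPM. The gene was thus not lower in the knockout libraries, and their range overlapped that of WT LPS defactinib. Reads were summed per gene, whichever exons they came from, so this gene does not check the labels. The log2 difference, WT LPS defactinib minus IRF5 KO LPS DMSO as in all that follows, was -0.55 (standard error 0.16, adjusted p = 0.0176 from edgeR), short of the threshold. Means of Irf5 in the other groups were 451 CPM in WT LPS DMSO, 614 in unstimulated WT, 365 in unstimulated IRF5 KO and 369 in IRF5 KO LPS defactinib. A genotype check on other genes used 490 genes that were called between unstimulated WT and IRF5 KO cells and moved little with LPS. The IRF5 KO LPS DMSO libraries lay on the knockout side for 81.4%, 81.4% and 92.9% of them, and the WT LPS defactinib libraries for 23.5%, 25.1% and 28.8%. In the IRF5 KO LPS defactinib libraries the share was 79.8% to 83.1%. It was 2.86% to 4.9% in WT LPS DMSO, whose libraries took part in choosing these genes. Ptk2b stood at 105, 101 and 122 CPM in WT LPS defactinib against 153, 151 and 170 CPM in IRF5 KO LPS DMSO, and Ptk2 at 28.3, 23.5 and 18.5 against 43.3, 43.5 and 31.6 CPM. Neither drug target overlapped between the groups, as was the case for 32.5% of all tested genes, and both differed by less than 2-fold, at -0.54 (adjusted p = 0.000204) and -0.75 (adjusted p = 0.0013) on the log2 scale.

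The 3 IRF5 KO LPS DMSO libraries did not form one level, and are therefore given singly throughout. Between replicates 1 and 2, 781 of the 15663 tested genes differed by over 2-fold, against 4249 between replicates 1 and 3 and 4260 between replicates 2 and 3. Replicates 1 and 2 thus differed by more than counting error but far less than any other pair of the compared groups, and whether they are independent was not tested. In WT LPS defactinib the pairs differed by over 2-fold in 1244, 1984 and 2377 genes. Knockout replicates 1 and 2 were nearest to the IRF5 KO LPS defactinib group, from whose mean 6.43% and 6.81% of the genes lay beyond 2-fold. Replicate 3 was nearest to unstimulated IRF5 KO (7.67%), and 25.2% of its genes lay beyond 2-fold of IRF5 KO LPS defactinib. The noncoding RNA Gm26917 stood at 22252, 41939 and 33727 CPM in WT LPS defactinib, at 26817, 26679 and 113 CPM in IRF5 KO LPS DMSO, at 11392 to 18571 CPM in IRF5 KO LPS defactinib and at 132 to 142 CPM in WT LPS DMSO. In the early response gene Egr1 knockout replicate 3 was also far below the others, with 538, 539 and 385 CPM in WT LPS defactinib and 916, 885 and 6.99 CPM in the knockout libraries. The small nuclear RNA Rn7sk (92.5, 150 and 85.8 CPM against 65.3, 61.4 and 0.607), Fos (92.6, 69.9 and 53.9 against 64.3, 61.6 and 4.01) and the heat shock gene Hspa1b (66.1, 64.6 and 43.1 against 85.6, 81.1 and 4.29) had a low replicate 3 as well. Knockout replicates 1 and 2 lay within the defactinib range on Gm26917, above it on Egr1 and Hspa1b and below it on Rn7sk. These 5 genes were chosen because they moved most between knockout replicates 1 and 2 and replicate 3, so that their split within the knockout libraries was fixed by the choice and is no evidence of how wide the split is. Apart from a floor of 5 on their mean log2 CPM over the compared groups, their levels outside the knockout libraries took no part in the choice. On Gm26917 replicate 3 stood near WT LPS DMSO. Hspa1b may share reads with its near-identical copy Hspa1a. Summed over 13 nuclear noncoding RNAs, the level was 40134 to 61372 CPM in WT LPS defactinib, 49276, 49498 and 4894 CPM in IRF5 KO LPS DMSO and 5170 to 6152 CPM in WT LPS DMSO. It was 2240 to 14355 CPM in unstimulated WT, and the sum holds Gm26917, which was chosen for its split. In the knockout libraries Il12b reached 610, 616 and 577 CPM against 5.02 to 6.27 CPM in unstimulated IRF5 KO, so that all 3 were far above unstimulated cells on this LPS-induced gene. Whether these libraries hold what their labels say was not tested, and neither was any other cause of the split. Results that rest on replicate 3, or on replicates 1 and 2, are given with and without them.

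**Figure D1:**
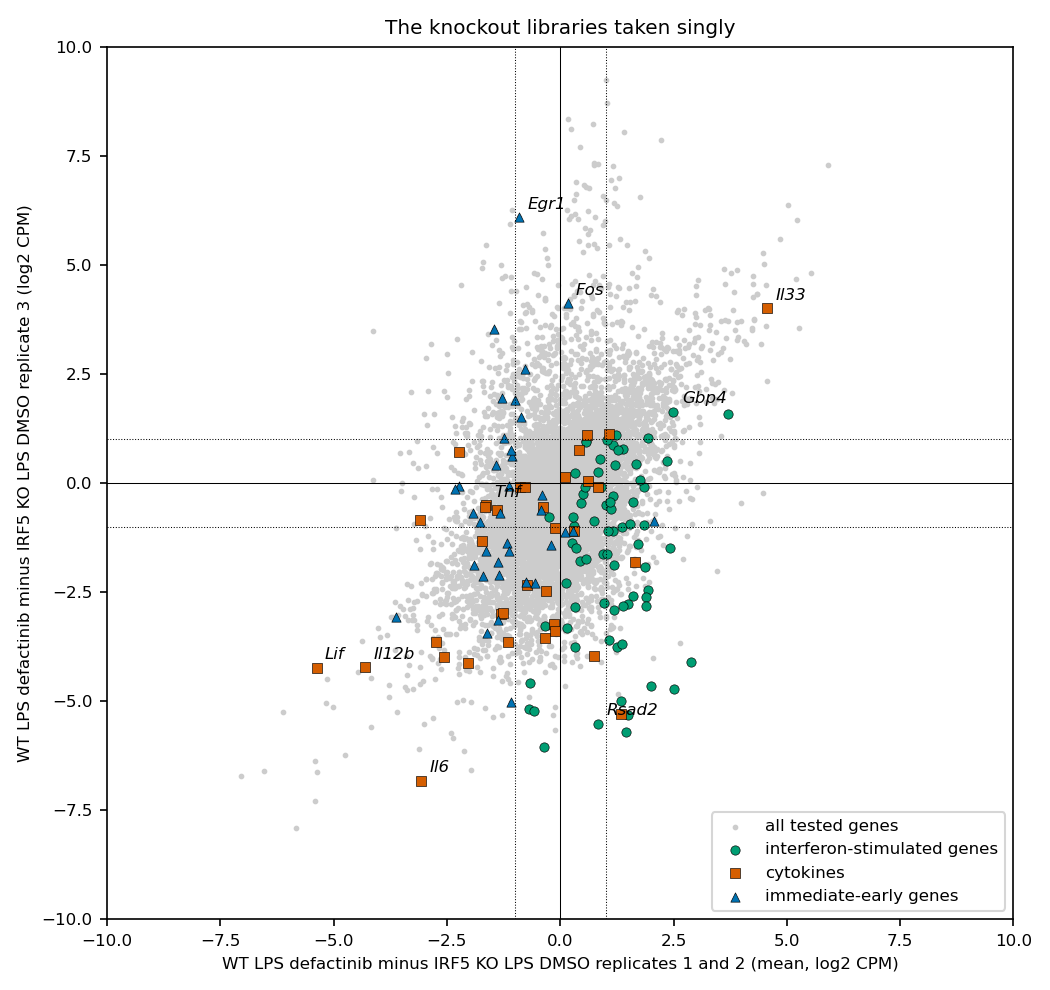
Each point is a tested gene. The horizontal axis is the log2 difference between WT LPS defactinib and the mean of IRF5 KO LPS DMSO replicates 1 and 2, and the vertical axis that from replicate 3, as log2 CPM with a prior count of 2. Genes near the diagonal have the same gap to every knockout library, such as Il12b, and 224 genes lay beyond 2-fold on opposite sides.

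WT LPS defactinib differed from IRF5 KO LPS DMSO in 2439 of 15663 tested genes (15.6%), which were called where the adjusted p from edgeR was under 0.05 and the levels differed by more than 2-fold. With the spread taken from the compared groups alone 915 were called, and 819 with the fold change threshold inside the test. The level was higher in the defactinib-treated WT cells for 824 (5.26%) and lower for 1615 (10.3%). The libraries of the groups did not overlap for 2103 of the called genes, while they did not overlap for 5098 of all tested genes (32.5%). Single knockout libraries differed in how far they stood from the WT LPS defactinib mean. Beyond 2-fold were 3056 genes in replicate 1 (19.5%), 3157 in replicate 2 (20.2%) and 4948 in replicate 3 (31.6%). All 3 lay beyond 2-fold on the same side for 1416 genes (9.04%), of which 1352 were called, 535 higher and 817 lower. A further 479 called genes were beyond 2-fold against replicate 3 only, 435 of them lower in WT LPS defactinib, and 317 against replicates 1 and 2 only. Without knockout replicate 3, 2518 genes were called, of which 1751 were among the 2439, and 47.2% of the calls were higher in place of 33.8%. Without replicates 1 and 2, which leaves a lone knockout library that is assumed to vary like the other groups, 4255 were called.

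Part of the gap was already there without LPS or inhibitor. Unstimulated WT and IRF5 KO cells differed in 1145 genes (7.31%), in libraries that are in neither compared group, although all 18 share the estimate of the spread. Of the 2439 direct calls, 691 were called at rest in the same direction (28.3% of the direct calls and 60.3% of the calls at rest), 372 higher and 319 lower in WT. Only 16 were called in opposite directions. Across all tested genes the log2 differences of both comparisons correlated with r = 0.52, a description across genes, which are not independent replicates. The direct gap was itself tested against the gap at rest, and differed for 908 genes (5.8%). Of the 1352 calls that held against all 3 knockout libraries, 809 were not called at rest, and for 409 of these the difference from rest passed the test, with 377 lower in WT LPS defactinib and 32 higher.

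**Figure D2:**
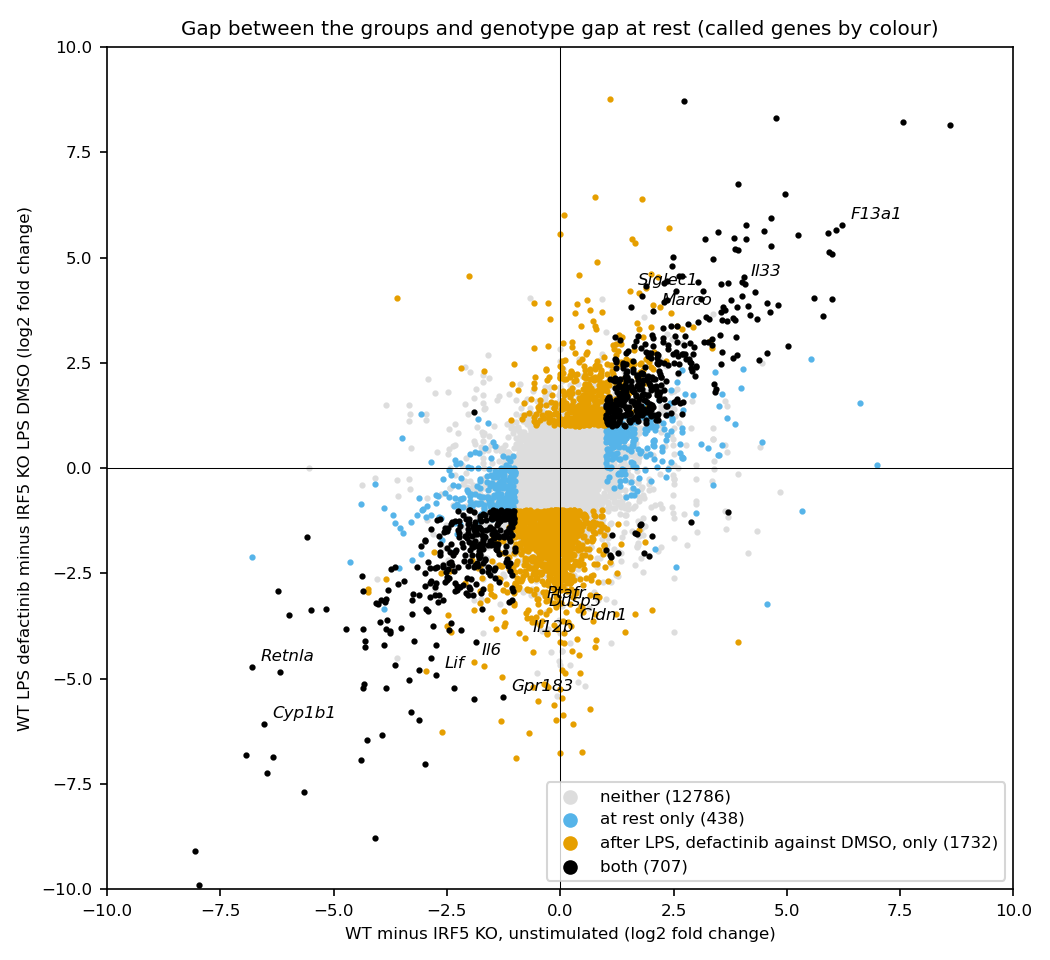
Log2 difference between WT LPS defactinib and IRF5 KO LPS DMSO (vertical) against that between unstimulated WT and IRF5 KO cells (horizontal), for each tested gene, coloured by which of the comparisons called it. The 707 genes called in both lie mostly in the lower left and upper right, and the 1732 genes called in the direct comparison alone spread along the vertical axis.

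Of the 9 cytokine and chemokine genes that the study names as IRF5-regulated, 6 were lower in WT LPS defactinib than in IRF5 KO LPS DMSO, 0 were higher and 3 were not called, beside 10.3% of all genes called lower. The study names most of these genes with these samples in view, and Tnf from other assays too, so that their direction is not independent evidence. All 9 stood below WT LPS DMSO in the defactinib group on average. Il12b (chromosome 11, 44400063 to 44414033), which encodes the p40 subunit of IL-12 and IL-23, was at 65, 15.8 and 28.7 CPM in WT LPS defactinib. Its level was 610, 616 and 577 CPM in IRF5 KO LPS DMSO and 2137 to 2759 CPM in WT LPS DMSO. The 3 knockout libraries lay together on Il12b and every one was above the highest defactinib library. The log2 difference was -4.04 (standard error 0.38, 95% interval -4.87 to -3.21, adjusted p = 1.68e-06 from edgeR). At rest the difference was -0.79 (adjusted p = 0.177), and the direct gap was 3.26 log2 units wider in the same direction (adjusted p = 0.000741). Without WT LPS defactinib replicate 1 the direct difference was -4.74. Il6 (chromosome 5, 30013114 to 30019981), a cytokine of the acute phase response, was at 3.84, 0.674 and 13.6 CPM against 28.3, 27.9 and 382 CPM. The groups did not overlap, although knockout replicate 3 was far above the others and set the size of the gap. The difference was -4.60 (standard error 1.01, adjusted p = 0.0027), -2.23 without that library (adjusted p = 0.0191) and -6.02 without WT LPS defactinib replicate 3. In a fit of only the compared groups Il6 was not called (adjusted p = 0.112), but it was with the replicate number as a block (adjusted p = 0.0123).

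Il1a, which encodes interleukin-1 alpha, was at 178, 47.5 and 338 CPM in WT LPS defactinib against 957, 953 and 1763 CPM in IRF5 KO LPS DMSO. Il1b, which encodes interleukin-1 beta, was at 201, 64.1 and 930 CPM against 563, 568 and 1825 CPM. Il1a did not overlap between the groups and was called (-2.71, standard error 0.48, adjusted p = 0.000584, and -3.46 without WT LPS defactinib replicate 3), while the third defactinib library placed Il1b within the knockout range. Il1b was not called with all libraries (-1.31, adjusted p = 0.149) was called without WT LPS defactinib replicate 3 (-2.91, adjusted p = 0.00113), and stood at -0.51 without knockout replicate 3 (adjusted p = 0.614). Il23a, the p19 subunit of IL-23, was at 4.88, 1.59 and 1.77 CPM against 14.2, 14.4 and 38.8 CPM (-3.03, adjusted p = 7.92e-05, and -2.37 without knockout replicate 3 or -3.72 without WT LPS defactinib replicate 1). Il12a, the p35 subunit of IL-12, was at 0.233, 0.0481 and 4.16 CPM against 0.509, 0.583 and 2.6 CPM. Il12a overlapped, was not called (0.23, adjusted p = 0.881) and stood at -3.13 without WT LPS defactinib replicate 3 (adjusted p = 0.0112), so its value rested on that library. Tnf, an early inflammatory cytokine, was at 1067, 723 and 664 CPM against 2491, 2495 and 1141 CPM. Tnf was lower than each knockout library (-1.32, standard error 0.24, adjusted p = 0.000698), but against replicate 3 alone the difference was -0.49 (adjusted p = 0.0661). Ccl3, a chemokine for monocytes and lymphocytes, was at 294, 209 and 259 CPM against 448, 452 and 1062 CPM (-1.36, adjusted p = 0.000833), and at -0.83 without knockout replicate 3, below the fold change threshold. Ccl4, a close relative of Ccl3, was at 484, 314 and 263 CPM against 465, 457 and 723 CPM and was not called (-0.63, adjusted p = 0.0396). With the spread taken from these 6 libraries alone, 2 of the 9 genes were called lower, and 5 with the replicate number as a block.

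**Figure D3:**
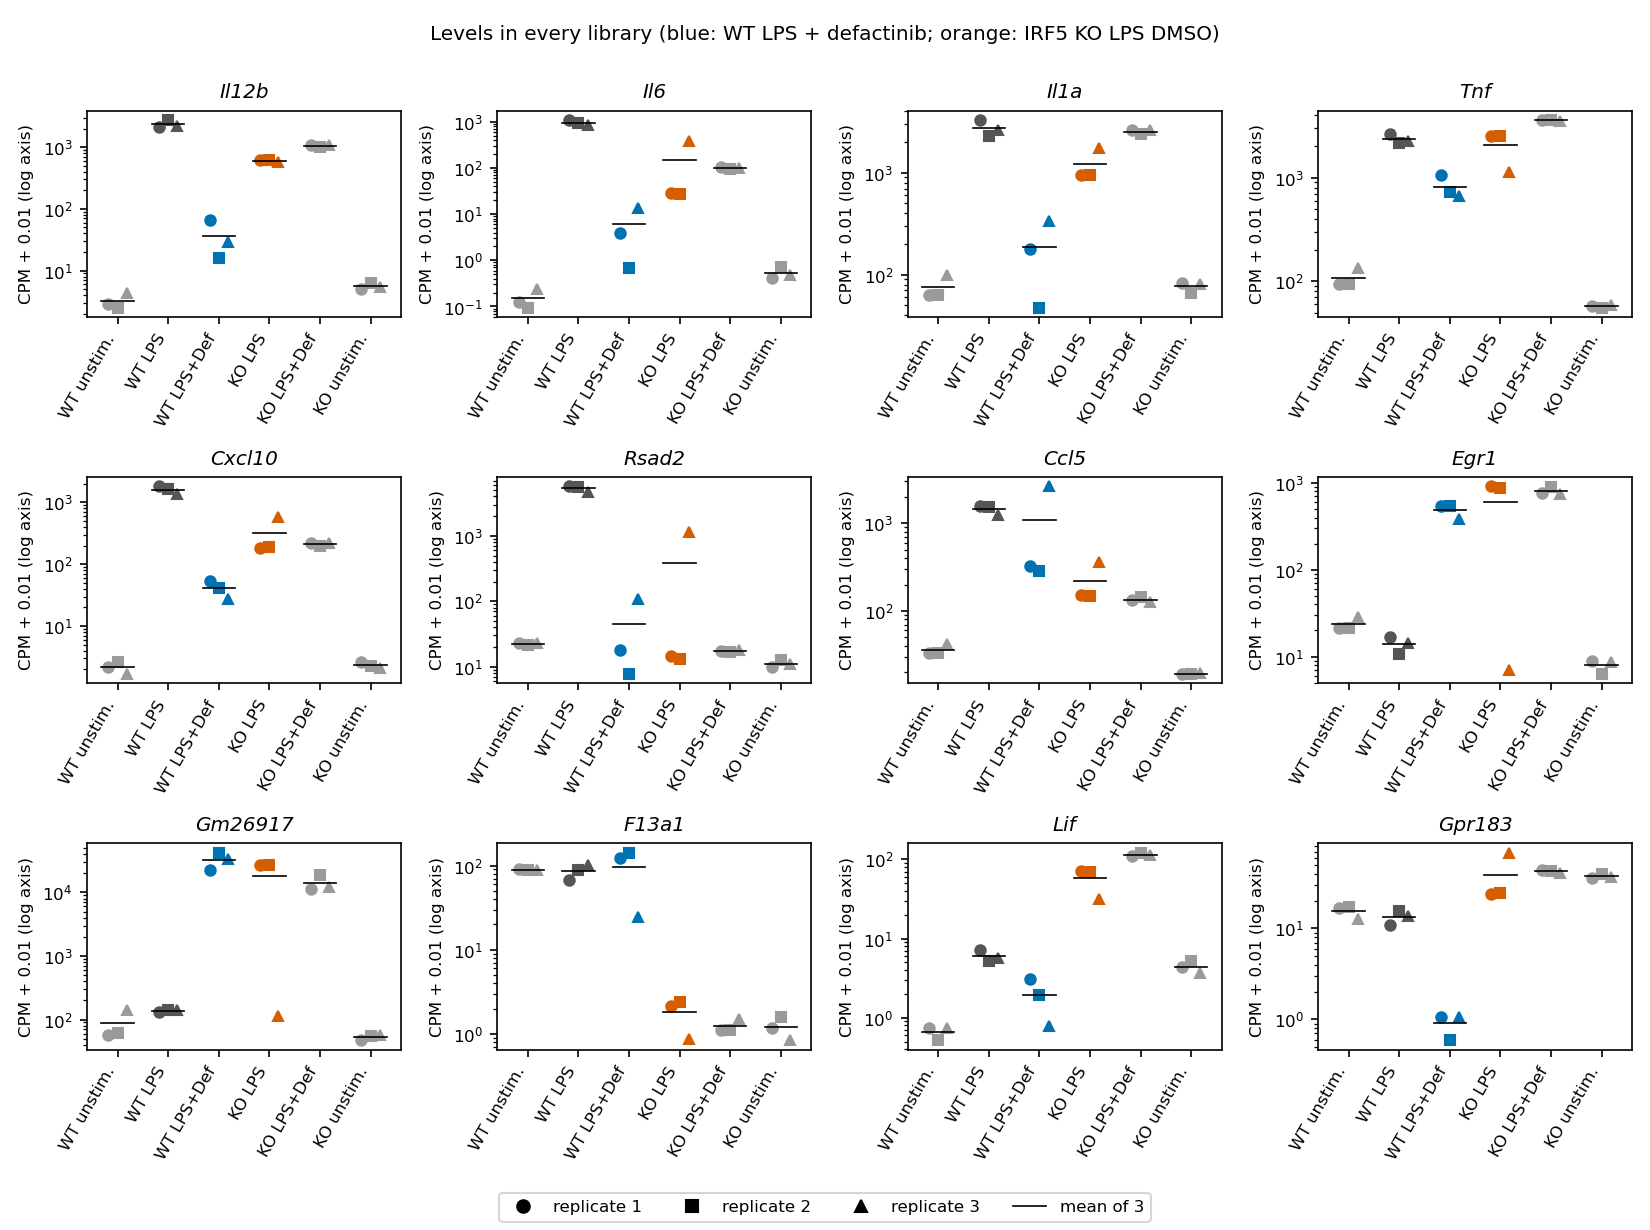
CPM of 12 genes in each of the 18 libraries (log axis, 0.01 added), by group, with a marker for each replicate number. Il12b and Lif separate WT LPS defactinib from all 3 IRF5 KO LPS DMSO libraries, and in Egr1, Gm26917 and Rsad2, genes chosen for it, knockout replicate 3 stands apart from replicates 1 and 2.

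Over a wider list of cytokines, 17 of 35 tested genes were lower in WT LPS defactinib and 2 were higher, with a median log2 difference of -1.38, beside 10.3% lower and a median of -0.04 over all tested genes. The 17 became 3 in a fit of only the compared groups, and 9 in that fit with the block. The median was -0.43, -0.78 and -1.33 against knockout replicates 1, 2 and 3. Lif, a cytokine of the IL-6 family, was at 3.05, 1.9 and 0.771 CPM in WT LPS defactinib and at 71.3, 69.6 and 31.9 CPM in IRF5 KO LPS DMSO. Lif had the largest gap of the list (-4.91, standard error 0.40, adjusted p = 3.5e-07), and was 2.73 log2 units lower in WT at rest too. Csf1, the growth factor of macrophages, was at 49, 34 and 48.7 CPM against 107, 101 and 343 CPM (-2.06, adjusted p = 0.000494). Csf2, which encodes GM-CSF, was at 0.884, 0.842 and 0.411 CPM against 6.37, 5.89 and 1.25 CPM (-2.65, adjusted p = 0.0025). The size differed by knockout library in both, with -1.25 for Csf1 without replicate 3, and -0.81 for Csf2 without replicates 1 and 2 (adjusted p = 0.182). Il27, a subunit of the cytokine IL-27, rested on knockout replicate 3, at 0.186, 0.265 and 0.848 CPM against 0.121, 0.106 and 15.6 CPM. Its difference of -3.65 (adjusted p = 0.0371) was -3.02 with the replicate number as a block (adjusted p = 0.0879) and 1.87 without that library (adjusted p = 0.0945). The call was also lost without WT LPS defactinib replicate 1, 2 or 3 (adjusted p = 0.11, 0.108 and 0.0512). Tnfsf15, a TNF family ligand, likewise went from -1.75 (adjusted p = 0.0488) to -1.52 with the block (adjusted p = 0.0822) and to 0.06 without knockout replicate 3 (adjusted p = 0.911), and its call was lost on leaving out any of 14 other libraries. The alarmin Il33 went the other way, at 123, 60.9 and 101 CPM against 3.61, 4.06 and 5.6 CPM (4.42, standard error 0.31, adjusted p = 6.69e-08), with a gap of 4.01 at rest.

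Among chemokines 7 of 24 tested genes were lower in WT LPS defactinib and 1 was higher, with a median of -0.59, beside 10.3% of all tested genes lower. Without knockout replicate 3 the count lower was 4, and in a fit of only the compared groups it was 2, or 4 with the block. Cxcl10, an interferon-induced chemokine for T cells (chromosome 5, 92346638 to 92348889, with its promoter printed above), was at 53.7, 40.9 and 27.3 CPM against 180, 189 and 576 CPM. Every knockout library was higher, and the difference was -2.95 (standard error 0.38, adjusted p = 3.2e-05), at -0.11 at rest and at -2.18 without knockout replicate 3. Cxcl1, a neutrophil attractant, was at 51.7, 43.7 and 35.8 CPM against 170, 170 and 134 CPM (-1.85, adjusted p = 5.48e-06), with the knockout libraries close together. Ccl5, also known as RANTES, was the single chemokine called higher, at 321, 283 and 2618 CPM against 151, 148 and 361 CPM. Its value of 2.29 (adjusted p = 0.0128) was 0.46 without WT LPS defactinib replicate 3 (adjusted p = 0.249).

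The called genes of early LPS signalling were lower in the inhibitor-treated cells. On the list of NF-kB feedback genes 12 of 30 were lower and 0 higher, with a median of -0.96, beside 10.3% of all tested genes lower, and the 12 became 6 in a fit of only the compared groups and 8 in that fit with the block. Cish, a feedback inhibitor of cytokine receptor signalling, was at 53.8, 37.8 and 53.8 CPM in WT LPS defactinib against 317, 319 and 259 CPM (-2.62, standard error 0.13, adjusted p = 2.02e-09). Nfkbid, a nuclear inhibitor of NF-kB, was at 16.8, 15.2 and 9.45 CPM against 100.2, 98 and 48.7 CPM (-2.57, adjusted p = 1.67e-06). Every knockout library was over 2-fold above the defactinib mean on both genes. Nfkbiz, a nuclear cofactor of NF-kB, was at 786, 486 and 630 CPM against 2318, 2306 and 322 CPM, so that replicates 1 and 2 stood above the defactinib libraries and replicate 3 below them. Its difference of -1.38 (adjusted p = 0.0324) was -1.30 with the replicate number as a block (adjusted p = 0.0569) and 0.97 against replicate 3 alone, and the call was lost on leaving out any of 4 of the 18 libraries. Tnfaip3, which encodes the NF-kB inhibitor A20, had the same order (1641, 930 and 1390 CPM against 3880, 3927 and 391 CPM), with -1.05 over all libraries, short of a call, -1.57 without replicate 3 and 1.75 without replicates 1 and 2.

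On the list of immediate-early genes, which respond to signals without new protein synthesis, 17 of 36 were lower and 0 higher (median -1.07), beside 10.3% of all tested genes lower, and the 17 became 10 in a fit of only the compared groups and 11 with the block. Dusp5, a phosphatase of the MAP kinase ERK, was at 19.1, 11 and 12.9 CPM against 171, 174 and 119 CPM. Its difference was -3.43 (standard error 0.21, adjusted p = 1.28e-08) and -0.45 at rest, and the direct gap differed from that at rest (adjusted p = 5.39e-06). Egr2, Atf3 and Myc, transcription factors of the early response, were also lower than in every knockout library, by -1.84, -1.58 and -2.50 on the log2 scale (adjusted p = 4.98e-07, 7.43e-07 and 0.000131). For Myc the value was -1.60 without knockout replicate 3. Other members followed the split of the knockout libraries, as Egr1 and Fos did. Without replicates 1 and 2 the list held 8 higher and 16 lower genes, and Egr1 stood at 6.12 in place of -0.31. Of the IRF family, Irf4 (27, 15.2 and 30.6 CPM against 92.2, 93.2 and 402) and Irf1 (22.8, 19.1 and 19 CPM against 51.4, 50.5 and 213) were lower, at -3.01 and -2.37 (adjusted p = 0.000134 and 0.00038). Without knockout replicate 3 they stood at -1.94 and -1.33, and Irf1 was not called in a fit of only the compared groups (adjusted p = 0.0593, or 0.0668 with the block).

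On the ISGs the gap had a different sign in different knockout libraries. Over the list 12 of 73 genes were called higher and 4 lower, with a median of 0.30, beside 5.26% higher and 10.3% lower of all tested genes. In a fit of only the compared groups 0 were called in either direction, and 4 higher and 2 lower in that fit with the replicate number as a block. Against the WT LPS defactinib mean, 44 ISGs were over 2-fold lower in knockout replicate 1 and 43 in replicate 2, with 0 over 2-fold higher in either. In replicate 3, 4 were over 2-fold lower and 40 higher. Summed over the list, the level was 2619, 1964 and 9370 CPM in WT LPS defactinib and 2060, 2064 and 9535 CPM in IRF5 KO LPS DMSO, so replicate 3 was the high library in both groups. The sum was 33933 to 41944 CPM in WT LPS DMSO, above all 6 libraries. Without knockout replicate 3 the list held 32 higher and 0 lower genes, without knockout replicates 1 and 2 it held 0 higher and 26 lower, and without both libraries numbered 3 it held 8 higher and 5 lower. Leaving out WT LPS defactinib replicate 3 alone turned the list over, to 1 higher and 17 lower, while it held 16 higher and 2 lower without WT LPS defactinib replicate 1 and 21 and 2 without replicate 2. Leaving out knockout replicate 1 or 2 gave 6 higher, with 12 or 9 lower. Rsad2 (chromosome 12, 26442753 to 26456452), which encodes the antiviral protein viperin, was at 17.8, 7.68 and 109.9 CPM against 14.6, 13 and 1134 CPM. It was not called (-3.10, adjusted p = 0.0755), and stood at 1.71 without knockout replicate 3 (adjusted p = 0.112). It was called lower without WT LPS defactinib replicate 3 (-4.93, adjusted p = 0.0266) and without knockout replicate 1 or 2 (-3.67 in both, adjusted p = 0.0267 and 0.0259). Ifit1 (chromosome 19, 34640871 to 34650009), which binds viral RNA, was at 5.79, 3.49 and 30.8 CPM against 11.1, 10.8 and 574 CPM, at -3.90 with all libraries (adjusted p = 0.0213) and 0.28 without that one (adjusted p = 0.758). Slfn5 and Parp14, both induced by interferon, went from -0.96 and -0.92 to 1.86 and 1.86 without it. Rsad2, Slfn5 and Parp14 were chosen because they moved most between knockout replicates 1 and 2 and replicate 3, so that their shift on leaving it out follows from the choice. Irf7, the interferon-induced member of the IRF family, was at 16.7, 10.7 and 885 CPM against 9.77, 8.99 and 48.3 CPM and rested on the other library, with 3.76 over all (adjusted p = 0.0266) and -0.71 without WT LPS defactinib replicate 3, and its call was also lost on leaving out knockout replicate 1 or 2. The Ifit, Slfn and Gbp families have close copies whose reads may be divided between members. Nlrc5, a regulator of MHC class I genes, did not overlap between the groups, at 73.6, 48.7 and 146 CPM against 33.5, 34.7 and 37.7 CPM. Its value of 1.34 (adjusted p = 0.00432) fell below the fold change threshold without WT LPS defactinib replicate 3, at 0.79. Gbp4, a guanylate-binding protein gene, was higher with or without that library (2.79 and 1.24, adjusted p = 0.00221 and 0.0027).

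**Figure D4:**
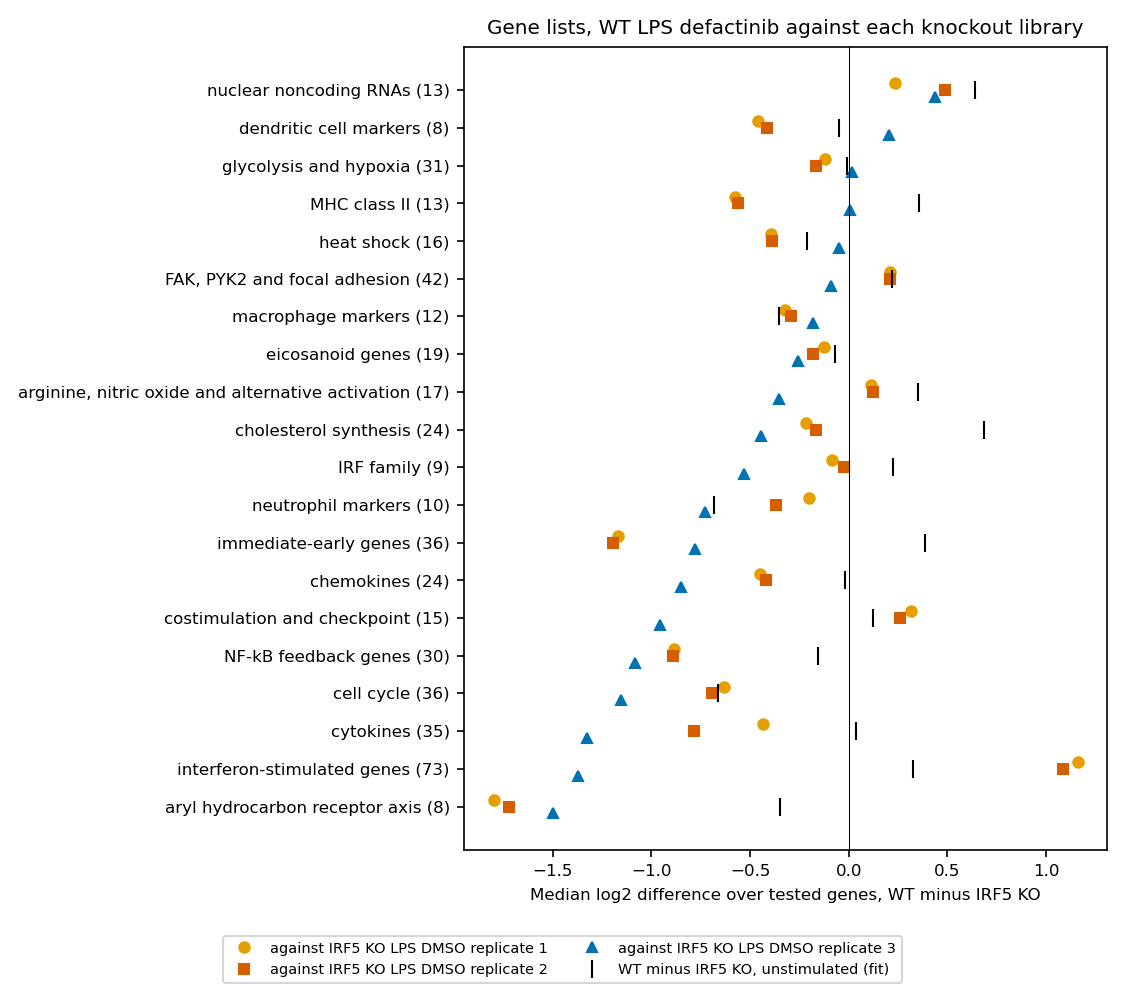
Median log2 difference of each gene list, WT LPS defactinib minus each single IRF5 KO LPS DMSO library (replicates 1, 2 and 3), with the median gap between unstimulated WT and IRF5 KO cells. The interferon-stimulated genes lie at 1.16 and 1.08 against replicates 1 and 2 and at -1.37 against replicate 3, while the aryl hydrocarbon receptor genes lie at -1.80, -1.72 and -1.50.

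The 20 called genes with the largest differences were taken at a mean log2 CPM of 3 or more and without overlap, a choice that all but fixes their distance from each knockout library. Of the 10 higher in WT LPS defactinib, 9 were also called higher in WT at rest, beside 372 of all 824 genes called higher. Of the 10 lower ones 4 were called lower at rest, beside 319 of all 1615. F13a1, the A chain of coagulation factor XIII, was at 123, 142 and 24.3 CPM against 2.13, 2.39 and 0.861 CPM (5.77, adjusted p = 2.69e-06), and its gap at rest was 6.22. Marco, a scavenger receptor of macrophages, was at 142, 202 and 159 CPM against 12.3, 13.3 and 12.6 CPM (3.72, standard error 0.15, adjusted p = 3.77e-10), at 2.05 at rest. Siglec1, a sialic acid receptor, was the gene without a call at rest, at 17.8, 16.5 and 98.9 CPM against 2.93, 1.99 and 2.27 CPM (4.21, adjusted p = 4.9e-05), and at 2.84 without WT LPS defactinib replicate 3. The other 6 beside Il33 were Spns2, a sphingosine-1-phosphate transporter (5.53), Eef1a2, a translation elongation factor (4.55), Ear2, an eosinophil-associated ribonuclease with close copies (4.01), Tnc, the matrix protein tenascin C (3.82), F11r, a junctional adhesion molecule (3.70), and Slc27a3, a fatty acid transport protein family member (3.17). At rest they stood at 5.25, 4.06, 3.11, 3.59, 3.54 and 3.53, with the widest change in Ear2.

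The 10 lower genes included Lif, Il6 and Il12b. Asb2, a subunit of a ubiquitin ligase, Ifitm1, an interferon-induced membrane protein, and C5ar1, the receptor of complement C5a, stood at -4.11, -3.93 and -3.87, with -4.32, -3.76 and -3.76 at rest. Ifitm1 was at -4.60 without WT LPS defactinib replicate 2 and C5ar1 at -3.19 without knockout replicate 3. Ptafr, the receptor of platelet-activating factor, was at 30.9, 16.5 and 33.4 CPM against 267, 263 and 227 CPM. The knockout libraries lay together and far above the defactinib libraries (-3.23, adjusted p = 1.28e-08), while the gap at rest was -0.50 and differed from the direct one (adjusted p = 6.72e-06). Cldn1, a tight junction protein, was at 7.93, 7.53 and 1.31 CPM against 59.2, 59.8 and 107 CPM (-3.75, 0.23 at rest). Apol7c, an apolipoprotein L family member, stood at -3.68, and at -1.21 without knockout replicate 3 (adjusted p = 0.0529).

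Genes of the aryl hydrocarbon receptor axis, which senses planar aromatic ligands, were lower in 5 of 8 cases and higher in 0, with a median of -1.78, beside 10.3% of all tested genes lower. All 5 lay beyond 2-fold against each knockout library, as did 55.4% of all called genes and 9.04% of all tested genes. Cyp1b1, a monooxygenase induced by this receptor, was at 1.16, 0.313 and 1.95 CPM against 41.7, 39.7 and 149 CPM (-6.07, adjusted p = 3.59e-06), at -6.54 at rest and at -5.17 without knockout replicate 3. Its repressor Ahrr was at 10.5, 8.32 and 17.7 CPM against 57.3, 54.3 and 73.5 CPM (-2.34, adjusted p = 5.64e-07). Tiparp, an ADP-ribosyltransferase induced by the receptor, was at 64.9, 34.9 and 37.7 CPM against 372, 378 and 125 CPM (-2.67, adjusted p = 1.58e-05), with -0.64 at rest and -1.46 without knockout replicates 1 and 2. Gpr183, the oxysterol receptor EBI2 that guides immune cell migration, was at 1.05, 0.577 and 1.05 CPM against 24.1, 24.6 and 67.8 CPM. It was at 10.9 to 15.3 CPM in WT LPS DMSO and at 41.1 to 44.1 CPM in IRF5 KO LPS defactinib, so the defactinib-treated WT libraries were below every library of these groups. The direct difference was -5.44 (standard error 0.39, adjusted p = 8.87e-08), and -1.26 at rest, with a difference between these gaps of -4.18 (adjusted p = 4.55e-05), and the direct difference was -4.77 without knockout replicate 3. Genes of nitric oxide metabolism and alternative activation went both ways, with 4 of 17 higher and 5 lower (3 lower without knockout replicate 3, and 2 in a fit of only the compared groups, or 3 with the block), beside 5.26% and 10.3% of all tested genes. Mrc1, the mannose receptor, was at 163, 216 and 104 CPM against 29.1, 30.5 and 41.4 CPM (2.26, adjusted p = 4.27e-06), with 1.46 at rest.

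Of 42 tested genes of FAK, PYK2 and focal adhesions, 5 were higher and 2 lower, 16.7% called beside 15.6% of all genes, with a median of 0.08. The 2 lower became 4 without knockout replicate 1 or 2 and 5 without WT LPS defactinib replicate 3, and the 5 higher became 3 without WT LPS defactinib replicate 1 and 3 in a fit of only the compared groups with the block. Tns1, a tensin that links integrins to actin, was at 177, 143 and 222 CPM against 27.7, 27.1 and 48.6 CPM (2.39, adjusted p = 1.05e-06), with 1.86 at rest. Crkl, an adaptor downstream of focal adhesion kinases, was at 14.9, 10.3 and 15.6 CPM against 42.2, 37 and 48.3 CPM (-1.64, adjusted p = 3.54e-07), with -0.15 at rest. Of 36 cell cycle genes 10 were lower and 0 higher (median -0.80), beside 10.3% of all tested genes lower, 17 were lower without WT LPS defactinib replicate 2 and 5 in a fit of only the compared groups, or 6 with the block. Among the 10 was the proliferation marker Mki67, at 127, 81.7 and 80.5 CPM against 247, 249.6 and 210.4 CPM (-1.29, adjusted p = 0.000123). Eicosanoid genes were lower in 5 of 19 cases, beside 10.3% of all tested genes, and in 2 in a fit of only the compared groups, or 1 with the block. Among the 5 was Ptgs2, the inducible cyclooxygenase, at 78.8, 22.7 and 216 CPM against 411, 422 and 498 CPM (-2.07, adjusted p = 0.00438, and -3.14 without WT LPS defactinib replicate 3), which was not called in a fit of only the compared groups (adjusted p = 0.132, or 0.0605 with the block). Calls were made for 12.9% of 31 glycolysis and hypoxia genes (0 higher and 4 lower, 1 lower without WT LPS defactinib replicate 2), 12.5% of 24 cholesterol synthesis genes (1 and 2) and 6.25% of 16 heat shock genes (0 and 1), beside 15.6% of all tested genes. Without knockout replicate 3 the calls were 2 higher and 2 lower, 3 and 2, and 1 and 3 in these lists. The share was 30.8% of 13 MHC class II genes (1 and 3), and of 15 costimulation and checkpoint genes 1 was higher and 5 were lower, beside 5.26% and 10.3% of all tested genes. The 5 became 3 without WT LPS defactinib replicate 2, and 1 in a fit of only the compared groups with or without the block.

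The labelled cell type was checked on marker lists. Macrophage markers were present in all 6 libraries, with 0 of 12 higher and 3 lower, beside 5.26% and 10.3% of all tested genes. In a fit of only the compared groups 0 were lower, or 2 with the block. Among the 3 was Adgre1, which encodes F4/80, at 132 to 343 CPM against 660.2, 671 and 365 CPM. Its difference was -1.44 (adjusted p = 0.00123), and -0.81 without knockout replicates 1 and 2. Adgre1 was not called in a fit of only the compared groups (adjusted p = 0.0938, or 0.113 with the block). Of 8 dendritic cell markers 1 was higher and 2 were lower, again beside 5.26% and 10.3%. The 1 higher became 0 without knockout replicate 3 or WT LPS defactinib replicate 3, and in a fit of only the compared groups. In that fit 1 was lower, or 2 with the block. Of 10 tested neutrophil markers 2 were called lower, again beside 10.3%. The 2 became 1 without WT LPS defactinib replicate 1 or 2, and in a fit of only the compared groups. They became 3 without knockout replicate 3 or without WT LPS defactinib replicate 3. Neutrophil markers summed to 351 to 475 CPM in WT LPS defactinib and to 1713, 1727 and 1179 CPM in IRF5 KO LPS DMSO. Most of this gap was in Mmp8, a neutrophil collagenase, at 352, 261 and 175 CPM against 1549, 1568 and 992 CPM (-2.38, adjusted p = 3.56e-06), and unstimulated WT and IRF5 KO libraries differed as well, at 253 to 267 and 1087 to 1710 CPM in sum. Of 12 mast cell and basophil markers 6 passed the filter on low counts and 4 of these were lower, beside 10.3% of all tested genes. The 4 became 2 without WT LPS defactinib replicate 2, 2 in a fit of only the compared groups and 1 in that fit with the block. The 6 markers had a sum of 9.91 to 34.8 CPM in WT LPS defactinib and of 50.3, 50.2 and 102 CPM in IRF5 KO LPS DMSO. The defining mast cell genes Fcer1a and Ms4a2 were among those that did not pass, at no more than 0.0465 and 0.151 CPM in any library. Among the tested markers Gata2, a transcription factor of mast cells and basophils, was at 0.674, 0.313 and 0.899 CPM against 25.9, 27 and 51.5 CPM (-5.79, adjusted p = 7.72e-09, -3.30 at rest). Of the 10 T, B and NK cell markers, 4 were tested, and these summed to 0.88 to 3.40 CPM. Cd4 and Cd8a were called higher, beside 5.26% of all tested genes. The count was 1 without WT LPS defactinib replicate 1, and 0 in a fit of only the compared groups with or without the block. In these bulk samples, fewer cells of a type and less RNA per cell cannot be told apart, and the part of these markers in the other differences was not tested.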

How the data were processed

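The deposited table holds raw counts of read pairs per gene, which the authors made by aligning reads to mm10 with STAR and counting uniquely mapped, reverse-stranded pairs over the exons of each gene with featureCounts 1.6.3. Replicates were not pooled, and 0 columns of per-sample values were left unused. Per library 39282181 to 61949143 pairs were counted (39282181 to 46278585 in the 6 compared). The chi-square per gene, 1 under pure counting error, was 2.33 for knockout replicates 1 and 2 and 84.1 to 441 for the other pairs inside the compared groups. A mean per group was fitted to all 18 libraries in edgeR 4.0.16 under R 4.3.3, after TMM scaling and filterByExpr, and tested two-sided by quasi-likelihood. P-values were adjusted by Benjamini-Hochberg over all 15663 tested genes. A gene was called if its adjusted p was under 0.05 and its log2 difference passed 1 in either direction. CPM are TMM-normalized. Single knockout libraries were compared with the mean log2 CPM (prior count 2) of WT LPS defactinib, without a test.

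The comparison, gene lists and genes named were chosen with earlier results of these data known. Genes were named by a rule: Irf5, Ptk2b and Ptk2; the 9 IRF5-regulated genes of the study; the 10 highest and 10 lowest log2 differences among called genes without overlap and at a mean log2 CPM of 3 or more; the 5 genes in each direction that moved most between knockout replicates 1 and 2 and replicate 3; and list members. Residuals of same-numbered libraries of the compared groups correlated at 0.15, 0.16 and 0.28. Over all 45 same-numbered pairs of libraries the median was 0.0046, and 4 were above 0.1. With 3 libraries in a group, 1 outlying library in each can raise all 3 values, so they do not show a pairing. The main fit holds no block, and the fit with the replicate number as a block is given where it changes a call. The labels do not state a pairing. The test code was checked on simulated data. Alternatives were DESeq2 1.42.0 and its size factors, limma-voom (limma 3.58.1), library size alone, other filters and thresholds, the block, a fit of the compared groups only and leaving out libraries. The block within a fit of the compared groups only, and leaving out both libraries numbered 3, were chosen after the data were seen. Promoter sequences are from RefSeq (GRCm38.p6), for 10661 of the tested genes.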

Additional observations from a re-analysis of the deposited data

Results flagged for a closer look

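For 7 of the genes named for their large difference between WT LPS defactinib and IRF5 KO LPS DMSO, the gap differed from that between unstimulated WT and IRF5 KO cells by the test of the difference in edgeR. Among all tested genes 5.8% passed this test, and the genes were chosen for a large direct difference, which favours passing it. The direct log2 difference minus that at rest was -3.98 for Cldn1 (adjusted p = 0.00128), -3.26 for Il12b (adjusted p = 0.000741), -2.98 for Dusp5 (adjusted p = 5.39e-06), -2.73 for Ptafr (adjusted p = 6.72e-06) and -2.17 for Lif (adjusted p = 0.0193). It was 1.67 for Marco (adjusted p = 5.82e-05) and 2.68 for Siglec1 (adjusted p = 0.0301). Single values of a gene within a group of 3 libraries were not tested for standing apart.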

How the results depend on the processing

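Over 108 named genes and the alternatives there were 3347 values besides the reported ones, of which 3091 kept their direction and their side of the threshold. In 16 the sign changed for a gene called in the main fit or under the alternative, and in 29 it changed without such a call. DESeq2's size factors, DESeq2, limma-voom, library size alone and no filter gave 2438, 2502, 2233, 2524 and 2332 calls in place of 2439. With the replicate number as a block 2325 were called, 2270 of them among the 2439, and among the 108 genes it ended the calls of Il27, Nfkbiz and Tnfsf15 and changed no other call. A filter of 5 CPM gave 1522 calls (353 higher), 598 at rest (301 higher and 297 lower) and 372 shared with rest in the same direction, in place of 691, among 10600 genes tested. A fit of only the compared groups gave 915 (347 higher and 568 lower), and the same fit with the replicate number as a block, chosen after the data were seen, 1005 (344 and 661). Without a fold change threshold there were 5005 calls (2084 higher and 2921 lower), and 2396 at rest (1242 and 1154). The threshold inside the test (glmTreat) gave 819 (292 and 527), and 355 at rest (189 and 166). Without knockout replicates 1 and 2 there were 4255 (1394 and 2861), and log2 differences reversed to 6.12 for Egr1, 0.72 for Tnfsf9, 0.97 for Nfkbiz, 1.75 for Tnfaip3 and 4.15 for Hspa1a. Leaving out 1 library at a time, Il12a ranged from -3.13 to 1.41, Tnfsf8 from -0.88 to 1.70, Slfn5 from -2.02 to 1.86, Parp14 from -2.16 to 1.86, Irf7 from -0.71 to 5.02, Il27 from -4.56 to 1.87, Ifit1 from -5.42 to 0.28 and Tnfsf15 from -2.20 to 0.059. Without both libraries numbered 3, also chosen after the data were seen, Il12a stood at -1.93, Tnfsf8 at 1.54 and Il27 at 0.96, and 2440 genes were called. The cause of these shifts was not tested. In genes with libraries far under 1 CPM, such as Il12a, the depth limits the precision of those libraries.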
